A study of Mus musculus with 6 samples.

Results

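The clustered histone genes were read in poly(A) RNA of wild type (WT) and Rnf20-/- mouse cells at day 3 of reprogramming. Members were all rows of the gene count table whose symbol opens with Hist and a digit, which gave 59 of 16982 genes. They comprised 6 H1, 16 H2A, 16 H2B, 8 H3 and 13 H4 genes, of which 48 carried the cluster name Hist1, 8 Hist2, 2 Hist3 and 1 Hist4. Each genotype had 3 libraries. The WT group carried the labels wild type and C57BL/6, and the knockout group the labels Rnf20-/- and C57BL/6, and all 6 samples were labelled untreated reprogrammable cells. Per the methods of the study, the cells were mouse embryonic fibroblasts (MEF) that were infected with retroviruses carrying the OSKM reprogramming factors and were replated after infection on growth-arrested MEF feeder cells, so feeder RNA may be part of every library. The knockout came from a ubiquitously expressed, tamoxifen-inducible Cre recombinase acting on a floxed Rnf20 allele (exons 2 to 4) in the presence of 4-OH tamoxifen. Whether the WT cells were given 4-OH tamoxifen or carried the Cre was not given in the sources used here. Nothing in the labels says that the replicates came from separate cultures or embryos, so p-values measure the spread between these libraries, which may be partly technical.

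RNF20 is the E3 ligase that places monoubiquitin on histone H2B. Clustered histone genes supply the core histones H2A, H2B, H3 and H4 and the linker histone H1 while DNA is replicated, and they are transcribed mainly in S phase. Their mRNAs are unusual in that most end just after a conserved stem-loop, which is bound by the stem-loop binding protein SLBP, and carry no poly(A) tail. A minority of the genes can also make longer, polyadenylated mRNAs from a site downstream of the stem-loop, a form described in differentiating and non-dividing cells. A library made from poly(A) RNA is therefore meant to hold the polyadenylated part of the family's output, and a low count here says little about the amount of tail-less histone mRNA. Whether the reads of a member came from RNA with a tail was not tested.

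The stem-loop letters of members on which the results turn are shown first, since they mark where a replication-dependent histone mRNA normally ends. Sequences are from GENCODE M21 transcripts (GRCm38), 5′ to 3′, with the 16-base stem-loop in capitals between 7 bases before it and up to 7 after it.
Hist1h1c: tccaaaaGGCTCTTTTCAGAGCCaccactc
Hist2h3c1: ccacaaaGGCTCTTTTCAGAGCCaccacag
Hist1h2ab: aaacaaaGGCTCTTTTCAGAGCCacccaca
Hist1h4h: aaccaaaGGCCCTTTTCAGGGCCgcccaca
Hist1h2ap: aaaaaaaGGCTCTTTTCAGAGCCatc
A search for the stem-loop, 16 bases that open with GG, close with CC and form at least 5 of 6 stem pairs, found such letters in 37 of the 57 members matched to M21 by identifier, and in 0.623% of 55380 M21 genes with other symbols (345 genes). The Hist1h2ap model ends 3 bases after the stem-loop, Hist1h2ab 11 bases after it and Hist1h4h 46 bases after it. Those of Hist1h2ap and Hist1h2ab hold no poly(A) signal (AATAAA or ATTAAA) after the stem-loop, while that of Hist1h4h holds 1, 32 bases from its end. The Hist1h1c transcript continues for 840 bases with 2 such signals, the last of them 26 bases from its end. The longer Hist2h3c1 transcript continues for 1167 bases with 1 such signal 23 bases from its end. The M21 transcript of Hist1h2bc is spliced and holds no such letters. Some M21 models without the letters are short, such as Hist1h4k (312 bases) and Hist2h2bb (381 bases), and may stop before a stem-loop. Absent letters thus need not mean an absent stem-loop.

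The promoters below are those of Hist1h1c and Hist1h2ac, which rose, of Hist1h2ap, which fell, and of Hist2h2bb, which had no WT count. The start of Hist1h2ac lies head to head with that of Hist1h2bc, for which no promoter was matched. Each runs from 250 bases before to 50 after the RefSeq start (GRCm38.p6), with matches of 3 motifs on either strand in capitals. The first motif was TATAAA, a form of the TATA box at which the basal transcription machinery assembles. The second was CCAAT, the site of the factor NF-Y. The third was ATTTGCAT, the octamer bound by POU factors.
Hist1h1c promoter, chr13:23738557-23738856, plus strand: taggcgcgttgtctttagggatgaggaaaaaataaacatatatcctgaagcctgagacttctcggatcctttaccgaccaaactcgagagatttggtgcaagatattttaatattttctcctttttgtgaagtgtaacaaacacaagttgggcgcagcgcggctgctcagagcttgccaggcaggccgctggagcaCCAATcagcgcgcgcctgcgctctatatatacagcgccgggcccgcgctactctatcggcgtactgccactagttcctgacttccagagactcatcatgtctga
Hist1h2ac promoter, chr13:23683910-23684209, minus strand: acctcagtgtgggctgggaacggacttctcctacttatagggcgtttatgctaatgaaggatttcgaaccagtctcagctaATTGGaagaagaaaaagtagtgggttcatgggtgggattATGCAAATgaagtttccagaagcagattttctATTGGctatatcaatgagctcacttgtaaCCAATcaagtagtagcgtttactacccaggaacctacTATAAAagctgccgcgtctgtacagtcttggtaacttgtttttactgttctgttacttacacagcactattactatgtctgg
Hist1h2ap promoter, chr13:21833426-21833725, minus strand: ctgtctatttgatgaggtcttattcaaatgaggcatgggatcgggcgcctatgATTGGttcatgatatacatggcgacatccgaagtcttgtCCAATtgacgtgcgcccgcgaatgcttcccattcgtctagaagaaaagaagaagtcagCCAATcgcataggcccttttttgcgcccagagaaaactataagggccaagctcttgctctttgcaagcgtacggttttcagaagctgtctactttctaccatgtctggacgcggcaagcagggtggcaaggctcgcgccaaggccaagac
Hist2h2bb promoter, chr3:96269450-96269749, plus strand: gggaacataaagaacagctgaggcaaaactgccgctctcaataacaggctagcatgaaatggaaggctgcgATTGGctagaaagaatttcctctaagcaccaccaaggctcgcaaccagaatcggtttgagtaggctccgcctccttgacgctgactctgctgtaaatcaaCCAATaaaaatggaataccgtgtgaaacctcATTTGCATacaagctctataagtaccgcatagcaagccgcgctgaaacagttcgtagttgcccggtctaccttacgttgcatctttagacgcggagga
CCAAT was found in 82.7% of 52 member promoters against 37.4% of 32851 RefSeq promoters, TATAAA in 59.6% against 13.6% and ATTTGCAT in 21.2% against 1.7%, and no matches of different motifs overlapped in a member promoter. Promoters of head-to-head genes share bases and are not independent. By type, CCAAT was in all H1, H2A, H2B and H3 promoters matched and in 3 of 12 of H4, while the octamer was in 6 of 15 H2A promoters, 5 of 12 H2B promoters and 0 of the H1, H3 and H4 promoters. Among the promoters printed, those of Hist1h2ac, which rose, and Hist2h2bb, at 0 in WT, held the octamer, and those of Hist1h1c, which rose, and Hist1h2ap, which fell, did not.

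The libraries held 20545442 to 21746898 counts, of which 3409 to 9131 were of members, and a floor of 3 counts, against which folds over an empty group were bounded, equalled 0.142 to 0.143 CPM, the count scaled to library size with TMM factors. Rnf20, the targeted gene, was at 106 to 107 CPM in WT and 16.4 to 18.7 CPM in the knockout, with a log2 fold change of -2.57 (adjusted p = 0.000163). Knockout replicate 3 stood apart, with a chi-square per gene of 92.4 and 101 against the other knockout libraries beside 6.04 to 8.92 for the remaining pairs of one genotype. All 6 macrophage markers were detected and summed to 44.5 to 89.1 CPM in WT and 48 to 241 CPM in the knockout. In knockout replicate 3 Lyz2 was at 158 CPM beside 25.5 to 58 CPM elsewhere, and Adgre1 at 31.9 CPM beside 1.76 to 4.27 CPM. Cd68 was not raised there, at 8.57 CPM beside 5.88 to 10.5 CPM elsewhere. The 5 epithelial markers with a row, of 6 listed, summed to 41.4 to 43.1 CPM and 3.38 to 33.8 CPM, with Krt8 at 0.714 CPM in knockout replicate 3 beside 12.4 to 30.3 CPM elsewhere. They did not all move alike. Cldn4, too low to be tested, had 0.142 to 0.143 CPM in WT and 0.238 to 0.573 CPM in the knockout. Cdh1 was highest in knockout replicate 1 (13.4 CPM) and lowest in knockout replicate 3 (1.81 CPM). The Y-linked genes Ddx3y, Eif2s3y, Kdm5d and Uty had 624 to 2686 counts in the WT libraries and knockout replicate 2, and 0 or 1 in knockout replicates 1 and 3. The knockout libraries thus differed among themselves in Y-linked RNA and the WT libraries did not. Genotype and Y-linked status therefore partly go together here and cannot be fully told apart. The fibroblast markers, all 10 detected, summed to 31600 to 34300 CPM in WT and 22700 to 41400 CPM in knockout libraries, and testis germ cell markers summed to at most 0.524 CPM.

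The question addressed was how the RNA of the clustered histone genes, as read in poly(A) libraries, differed between Rnf20-/- and WT cells. Most of the members that could be tested were higher in the knockout, led in amount by Hist1h1c (linker histone H1.2) and Hist1h2bc (an H2B gene), while Hist1h2ap (an H2A gene), the member with the highest WT level, was lower. Of the 59 members, 25 passed the filter on low counts, 14 rose, 1 fell and 10 did not pass. These calls used edgeR's quasi-likelihood test, with p-values adjusted by the Benjamini-Hochberg method over 13386 genes and a threshold of 0.05. Over all genes tested the same rule called 16.4% higher and 16.6% lower (2195 and 2218 genes, and 1748 and 2687 when scaled by library totals only). At the thresholds of the study (adjusted p under 0.01, absolute log2 fold change over 1, mean FPKM over 1 in a genotype) 5 members rose and 1 fell, beside 1.5% and 2.08% of all genes. The risers were Hist1h1c, Hist1h2bc, Hist2h2bb, Hist2h3c1 and Hist2h3c2, and the member that fell was Hist1h2ap. The median log2 fold change of the 25 members was 1.12, which was the same with the 2 members at 0 in WT set at their lower bound, and that of all genes tested was -0.000324. Of the 25, 8 (Hist1h2al, Hist1h2bp, Hist1h3i, Hist1h4d, Hist1h4h, Hist2h2bb, Hist2h3c2 and Hist2h4) had entered only because their knockout counts were high enough, so they could hardly be found lower, and among the other 17 there were 9 higher and 1 lower members with a median of 0.84. The 5 and 1 calls at the thresholds of the study became 0 and 0 without WT replicate 1, 2 or 3 or knockout replicate 1, 2 and 0 without knockout replicate 2, and 10 and 1 without knockout replicate 3, while at an unadjusted p under 0.05 each of these edgeR fits gave 16 to 20 higher members and 1 lower. At an adjusted p under 0.05 the 14 higher members became 9 without WT replicate 2 and 7 without WT replicate 3. Over all genes tested, the study thresholds called 3 higher and 1 lower without WT replicate 1. Without WT replicate 2 they called 1 and 1, and without WT replicate 3 they called 0 and 1. Without knockout replicates 1, 2 and 3 they called 61 and 49, 45 and 30, and 300 and 491. At 0.05 the share of all genes called was 33%, and 11.9% and 10.3% without WT replicates 2 and 3.

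The whole family summed to 184, 162 and 201 CPM in the WT libraries and to 308, 271 and 435 CPM in the knockout libraries, so that every knockout library lay above every WT library and the mean was 1.85-fold higher (182 ± 19.7 against 338 ± 85.8 CPM, SD, n = 3 each). In WT, Hist1h2ap made up 30.9%, 35.8% and 39.5% of the family's counts. In the knockout its share was 4.38%, 4.97% and 1.22%, and that of Hist1h1c was 39.1% to 41.9% beside 24.2% to 29.2% in WT. Without Hist1h2ap, a choice made after its values were seen, the family sum was 2.78-fold higher in the knockout. Of the gains summed over the members with a higher knockout mean, 41.1% came from Hist1h1c and 24.5% from Hist1h2bc. Fewer cells that express a gene and less RNA per cell cannot be told apart in bulk RNA.

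**Figure D1:**
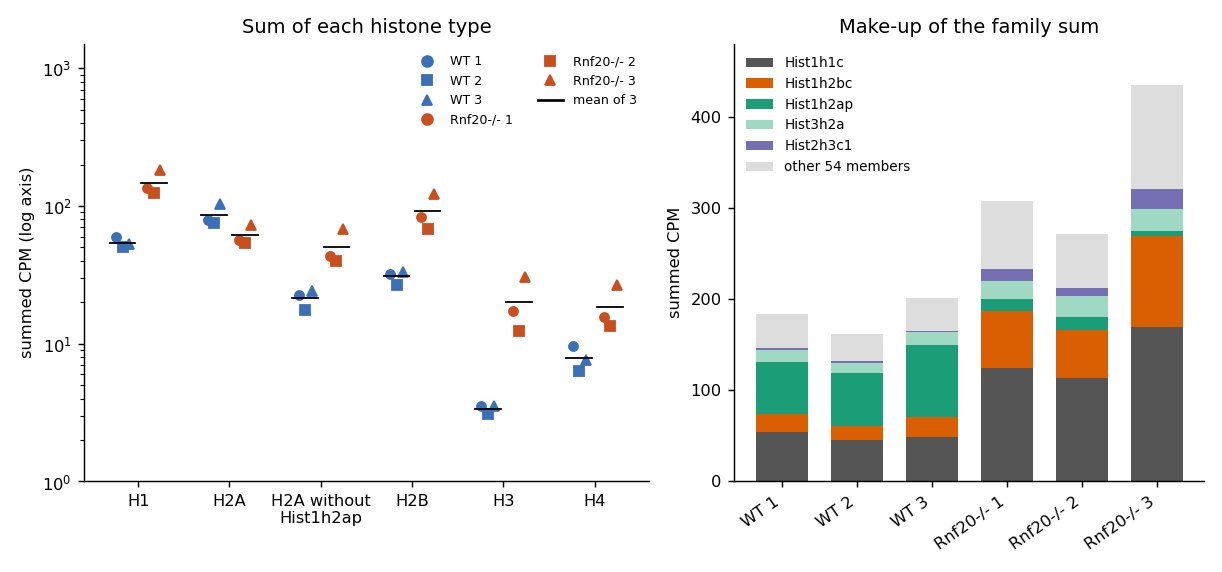
Left, summed CPM (log axis) of each histone type in the 3 WT (blue) and 3 Rnf20-/- (orange) libraries, with black lines at the means. Right, summed CPM of the family in each library split into 5 members and the other 54. H1, H2B, H3 and H4 sums are higher in every knockout library, the H2A sum is not, and the green Hist1h2ap segment shrinks from 57.0 to 79.4 CPM in WT to 5.28 to 13.5 CPM in the knockout.

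Read by type, the H3 sum had the highest ratio of the 5 types. It was 3.52, 3.08 and 3.51 CPM in WT and 17.3, 12.4 and 30.7 CPM in the knockout, 5.97-fold higher. The sums of H2B, H1 and H4 were 2.97-fold, 2.71-fold and 2.36-fold higher, and the knockout libraries of each type lay above the WT ones. The H2A sum went the other way, with 79.5, 75.5 and 104 CPM in WT and 56.8, 53.5 and 73.1 CPM in the knockout, a ratio of 0.709. That ratio turned to 2.35 once Hist1h2ap was left out and was 2.02 when Hist1h2al was left out as well. The direction of the H2A sum thus turned with that 1 gene.

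Hist1h1c encodes the linker histone H1.2, which binds DNA where it enters and leaves the nucleosome. The gene lies at chr13:23738808-23740367 on the plus strand (GRCm38). Its level was 53.8, 45.3 and 48.7 CPM in WT and 125, 114 and 170 CPM in the knockout. The genotypes did not overlap, and knockout exceeded WT by 1.47 on the log2 scale (standard error 0.163, adjusted p = 0.00344). Hist1h1e (H1.4) had 2.19, 2.47 and 2.23 CPM in WT and 4.68, 4.32 and 5.95 CPM in the knockout, without overlap, and Hist1h1b (H1.5) had 2.99, 2.18 and 1.57 CPM and 5.44, 5.84 and 4.62 CPM. Both rose, by log2 fold changes of 1.12 (adjusted p = 0.0109) and 1.24 (adjusted p = 0.0177), although the call of Hist1h1e was lost without WT replicate 3 (adjusted p = 0.0561) and that of Hist1h1b without WT replicate 2 (0.0731) or 3 (0.0635). The other H1 genes, Hist1h1a, Hist1h1d and the testis-type Hist1h1t, had at most 10 counts in any library and were not tested, with 0, 2 and 2 counts of Hist1h1t in WT and 0, 4 and 0 in the knockout.

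**Figure D2:**
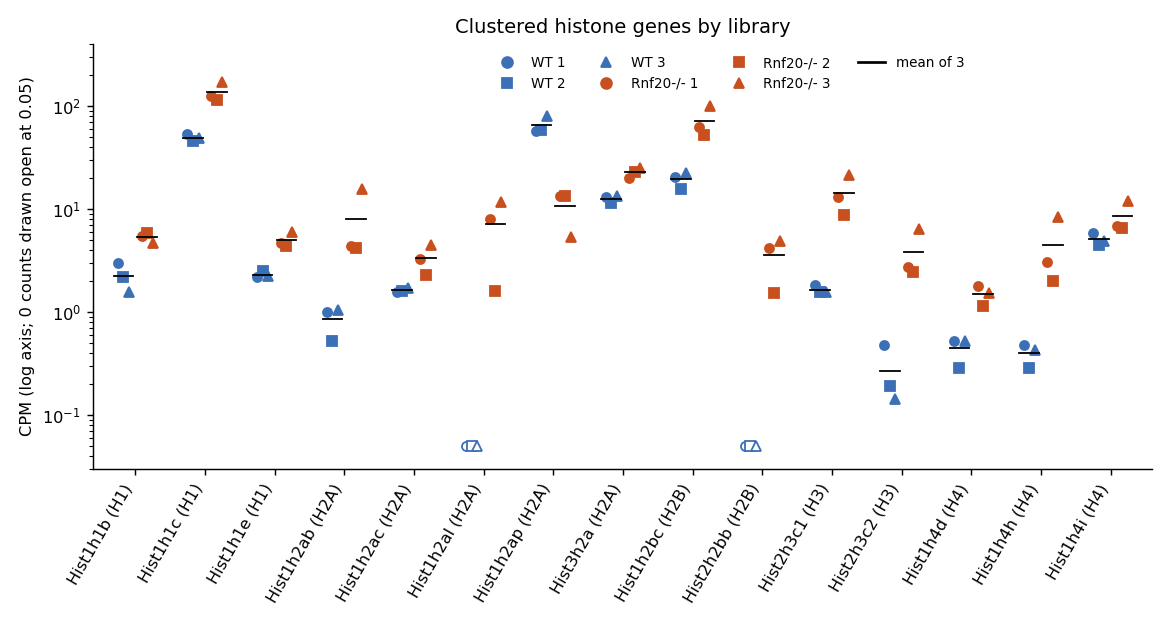
CPM (log axis) of 15 members in each of 3 WT (blue) and 3 Rnf20-/- (orange) libraries, ordered by histone type, with black lines at the group means and open symbols at 0.05 for libraries with 0 counts. Hist1h2ap is the one member shown whose knockout libraries lie below the WT ones, and knockout replicate 3 (triangles) is often the highest of the risers.

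H2A was the type with members called in both directions. Hist1h2ap, which encodes a canonical H2A at chr13:21833026-21833507 on the minus strand, had 57.0, 58.0 and 79.4 CPM in WT and 13.5, 13.5 and 5.28 CPM in the knockout. All knockout libraries were below all WT libraries, and Hist1h2ap fell by 2.59 on the log2 scale (standard error 0.356, adjusted p = 0.00518), with a range of -2.78 to -2.26 over the alternatives. Of its 100-base windows 92.2% also occur in other genes, chiefly Hist1h2ao and Hist1h2ag, so its reads cannot be told apart from theirs over most of its length, and how shared reads were counted was not given in the sources used here. The summed level of these 3 genes was 57.5, 58.7 and 79.8 CPM in WT and 13.6, 13.5 and 5.38 CPM in the knockout, a ratio of 0.166. Hist1h2ag alone had 8, 15 and 7 counts in WT and 2, 0 and 2 in the knockout, too few to pass the filter.

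The H2A genes that rose were Hist1h2ab, Hist1h2ac, Hist1h2al and Hist3h2a. Hist3h2a, the H2A gene of the small Hist3 cluster on chromosome 11, moved from 13, 11.4 and 13.4 CPM in WT to 20.1, 22.9 and 24.8 CPM in the knockout. Its libraries varied little within each genotype, and its rise of 0.84 on the log2 scale (standard error 0.119, adjusted p = 0.00554) was under the size threshold of the study. Of its 100-base windows 29.8% also occur in Trim17, which overlaps it on the same strand and has no row in the table. Hist1h2ab had 0.998, 0.522 and 1.04 CPM in WT and 4.39, 4.13 and 15.7 CPM in the knockout. The knockout libraries were above the WT ones and knockout replicate 3 was far above the other two, the rise was 3.23 on the log2 scale (standard error 0.644, adjusted p = 0.0131), and without WT replicate 1, 2 or 3 the adjusted p was 0.0512, 0.0606 and 0.0580. Without knockout replicate 3 the value was 2.31, and 52.4% of the windows of Hist1h2ab also occur in other H2A genes. Hist1h2ac was at 1.57, 1.61 and 1.71 CPM in WT and 3.24, 2.28 and 4.43 CPM in the knockout, a log2 fold change of 1.02 (adjusted p = 0.0392) that did not overlap between genotypes but lost its call without WT replicate 1 (0.116), 2 (0.117) or 3 (0.112) or knockout replicate 1 (0.0767).

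Hist1h2al, like the H2B gene Hist2h2bb described below, had 0 counts in all WT libraries. It had 167, 34 and 248 counts in the knockout, which is 7.97, 1.61 and 11.8 CPM. With 3 counts set as the floor of each WT library, the knockout was at least 50.1-fold higher (adjusted p = 0.0133). M21 annotates this identifier as a processed pseudogene on the minus strand of chromosome 13 at chr13:51202727-51203065, outside the histone clusters, and 19.2% of its windows also occur in the Hist2 genes Hist2h2aa1, Hist2h2aa2 and Hist2h2ac or in Gm20634. Hist2h2aa1 itself had 1.57, 0.474 and 1.71 CPM in WT and 1.57, 2.80 and 2.52 CPM in the knockout, which overlapped (log2 fold change 0.88, adjusted p = 0.205). Of the other tested H2A genes, Hist1h2ad had 4.13, 2.56 and 4.55 CPM in WT and 5.73, 5.70 and 7.38 CPM in the knockout (log2 fold change 0.74, adjusted p = 0.0661), and Hist1h2ae overlapped (-0.15, adjusted p = 0.890). The 8 H2A genes that were not tested, Hist1h2ag among them, had at most 15 counts in a library.

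Among H2B genes, whose products are the substrate of RNF20, Hist1h2bc was the most abundant. It had 20.4, 15.6 and 22.1 CPM in WT and 61.8, 52.7 and 99.1 CPM in the knockout. The genotypes were separate and the rise was 1.88 on the log2 scale (standard error 0.261, adjusted p = 0.00533). Hist2h2bb had 0 counts in all WT libraries and 88, 32 and 103 counts in the knockout (4.20, 1.52 and 4.90 CPM), at least 24.9-fold higher with the same floor (adjusted p = 0.00752). Its row is given a length of 3714 bases in the count table against 381 bases in M21, and the same-strand locus Gm42743, which has no row of its own in the table, overlaps it and holds 45.4% of its windows. Hist1h2bg had 7.22, 7.45 and 7.02 CPM in WT and 13, 9.54 and 14 CPM in the knockout, with no overlap and a log2 fold change of 0.75 (adjusted p = 0.0177), but its call was lost without WT replicate 1 (0.0666), 2 (0.0669) or 3 (0.0765). Of the windows of Hist1h2bc 25.4%, and of those of Hist1h2bg 44.9%, also occur in other H2B genes. Hist2h2be had 2.57, 2.32 and 2.61 CPM in WT and 1.77, 2.09 and 1.86 CPM in the knockout, which did not overlap but did not pass (log2 fold change -0.39, adjusted p = 0.199), and Hist1h2bp overlapped. The 11 H2B genes that were not tested had at most 23 counts in a library, among them the testis-type Hist1h2ba with 1 count in 1 WT library and 0 in the other 5.

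The H3 calls both came from Hist2 on chromosome 3. Hist2h3c1 had 1.81, 1.57 and 1.57 CPM in WT and 13.1, 8.64 and 21.3 CPM in the knockout, and Hist2h3c2 had 0.475, 0.190 and 0.142 CPM and 2.72, 2.42 and 6.38 CPM. The genotypes were separate in both, and the log2 fold changes were 3.12 (standard error 0.357, adjusted p = 0.00356) and 3.81 (standard error 0.606, adjusted p = 0.00738). The 2 genes share part of their sequence, with 32.9% of the windows of Hist2h3c1 found in Hist2h3c2 and 61.6% of those of Hist2h3c2 found in Hist2h3c1. All windows of Hist2h3c1 also occur in Gm20634, a locus that overlaps it on the same strand and has no row in the table. The value of Hist2h3c2, with 3 to 10 WT counts, was 4.48 without WT replicate 1. Together with Hist2h3b they summed to 2.28, 1.80 and 1.71 CPM in WT and 15.8, 11.2 and 27.7 CPM in the knockout, a 9.45-fold higher mean. Hist1h3i had 0.285, 0.285 and 0.474 CPM in WT and 0.906, 0.570 and 1.14 CPM in the knockout and just missed the threshold (log2 fold change 1.31, adjusted p = 0.0536), and Hist1h3e overlapped. The other 4 H3 genes had at most 17 counts in a library.

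H4 genes encode the same protein from many copies. Hist1h4h had 0.475, 0.285 and 0.427 CPM in WT and 3.05, 1.99 and 8.43 CPM in the knockout. WT counts were 6 to 10, the groups did not overlap, and the rise was 3.49 on the log2 scale (standard error 0.639, adjusted p = 0.0103), with an adjusted p of 0.0525 without WT replicate 2 and 0.0533 without WT replicate 3. Without knockout replicate 3, which was 3.35 times the mean of the other two, the value was 2.66. Other H4 genes hold 38.5% of the windows of Hist1h4h. Hist1h4d had 0.523, 0.285 and 0.522 CPM in WT and 1.77, 1.14 and 1.52 CPM in the knockout, again without overlap, for a log2 fold change of 1.72 (adjusted p = 0.0157, and 0.0516, 0.0616 and 0.0604 without WT replicate 1, 2 and 3). Hist1h4i, the most abundant H4 gene in WT, had 5.84, 4.46 and 4.93 CPM there and 6.87, 6.50 and 12.0 CPM in the knockout. Its libraries did not overlap, but with a log2 fold change of 0.74 it did not pass (adjusted p = 0.08). Hist2h4 had 10, 4 and 0 counts in WT and 26, 21 and 22 in the knockout (log2 fold change 2.27, adjusted p = 0.0602), Hist1h4k overlapped, and 8 H4 genes, Hist4h4 among them, had at most 20 counts in a library.

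The 34 members that were not tested had at most 23 counts in any library. In 6 of them every knockout library was above every WT library, in 2 it was below, and in 26 the genotypes overlapped, while among the 25 tested members 18 were all above and 2 all below. Of the 8 tested members that had passed only through their knockout counts, and could hardly be found lower, 7 were all above. Among the other 17 there were 11 all above and 2 all below. Over all genes tested 26.6% were all above and 28.2% all below. Of the 14 members that rose, 12 were highest in knockout replicate 3 and 12 were lowest in knockout replicate 2, and in 8 knockout replicate 3 was over 1.5 times the mean of the other two. Leaving out knockout replicate 3 gave 15 higher and 1 lower members at an adjusted p under 0.05, and a median of 0.97. In that fit 48.1% of all genes tested were called in either direction, beside 33% in the main fit.

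To compare levels between genes, CPM was divided by the gene length in the count table in kb. On this scale Hist1h2ap had the highest WT mean, 134 CPM per kb, ahead of Hist1h1c (31.6), Hist1h2bc (26.3), Hist1h4i (6.99) and Hist3h2a (3.44). The per-library values of Hist1h1c (29.0 to 34.5) and Hist1h2bc (21.1 to 30.1) overlapped in WT, whereas the other neighbours in this order were separate. In the knockout Hist1h2bc (71.6 to 135) and Hist1h1c (72.8 to 109) overlapped again and were both above Hist1h2ap (11 to 28), which was the highest in WT. Hist1h2al (4.27 to 31.2) overlapped with Hist1h2ap, and Hist1h4i (8.94 to 16.6) with both. These lengths are not those of M21 for all members. The table length was over 1.5 times the M21 exon length in 12 of 57 members, as in Hist1h1b (7003 against 743 bases) and Hist1h2ab (3657 against 473 bases), which was the case in 2.59% of all matched genes. Levels per kb and fold changes of such members thus depend on which stretch was counted. Among them Hist1h1b, Hist1h1e, Hist1h2ab, Hist1h2bg, Hist1h4d, Hist2h2bb and Hist3h2a were called higher. How much of their counts came from outside the M21 exons was not tested.

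Members with a table length over 1000 bases, longer than a mRNA that ends at the stem-loop, were then set beside shorter ones. Table and M21 lengths put some members on different sides of this limit. Hist1h2bc had 736 bases in the table and 1156 in M21, while Hist1h2ab had 3657 and 473, and Hist1h2bg 2363 and 618. Of 21 long members 17 passed the filter, 11 rose and 0 fell in edgeR's quasi-likelihood test. No long member was lower at an unadjusted p under 0.05 either, and the 2 members that DESeq2 called lower, Hist1h2ap and Hist1h2ag, are short. Of the 17 long members 6 had passed only through their knockout counts, and could hardly be found lower, as had 2 of the 8 short ones. Of 38 shorter members 8 passed, 3 rose (Hist1h2al, Hist1h2bc and Hist1h4h) and 1 fell (Hist1h2ap). The long members summed to 94.5, 79.8 and 87.6 CPM in WT and 211, 189 and 289 CPM in the knockout, 2.63-fold higher and without overlap. The shorter members summed to 89.6, 81.9 and 113 CPM and 97.8, 82.1 and 146 CPM, which overlapped, and without Hist1h2ap to 32.6, 23.9 and 34.1 CPM and 84.3, 68.6 and 141 CPM, 3.24-fold higher. Hist1h2bc alone had a mean of 19.4 CPM in WT and 71.2 CPM in the knockout.

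The transcript beyond the stem-loop gave a further view, with a limit of 300 bases that was set after the sequences and values had been seen. In 14 members the M21 transcript ran 330 to 4884 bases past the stem-loop, and of these 10 were tested and 7 rose. In 23 members it ran 3 to 185 bases past, and of these 8 were tested, 3 rose and 1 fell. Among those risers, Hist1h2ab and Hist1h2bg were counted with gene lengths of 3657 and 2363 bases, against 473 and 618 in M21. Hist1h2ad and Hist1h2bp, tested but not called, had 3441 and 3220 bases against 572 and 706. Their counts may thus include reads beyond the M21 transcript, which was not tested. Of the members tested, 3 of 10 and 2 of 8 had passed only through their knockout counts, so that their direction was nearly fixed. The first group summed to 68.5 to 80.8 CPM in WT and 165 to 250 CPM in the knockout. The second summed to 71.8 to 97.7 CPM in WT and 40.2 to 58.4 CPM in the knockout, and without Hist1h2ap to 18.2, 13.8 and 18.3 CPM and 30.2, 26.7 and 53.1 CPM. Without Hist1h2ap, whose model has the fewest bases after the stem-loop among the members tested, the sums of both classes were thus higher in every knockout library. Of the 20 members with no such letters 7 were tested and 4 rose (Hist1h1b, Hist1h2al, Hist1h2bc and Hist2h2bb), 3 of the 7 having passed only through the knockout, and the 20 summed to 21 to 28.4 CPM in WT and 65.5 to 126 CPM in the knockout. Short models among them may stop before a stem-loop, so this class rests on the annotation.

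**Figure D3:**
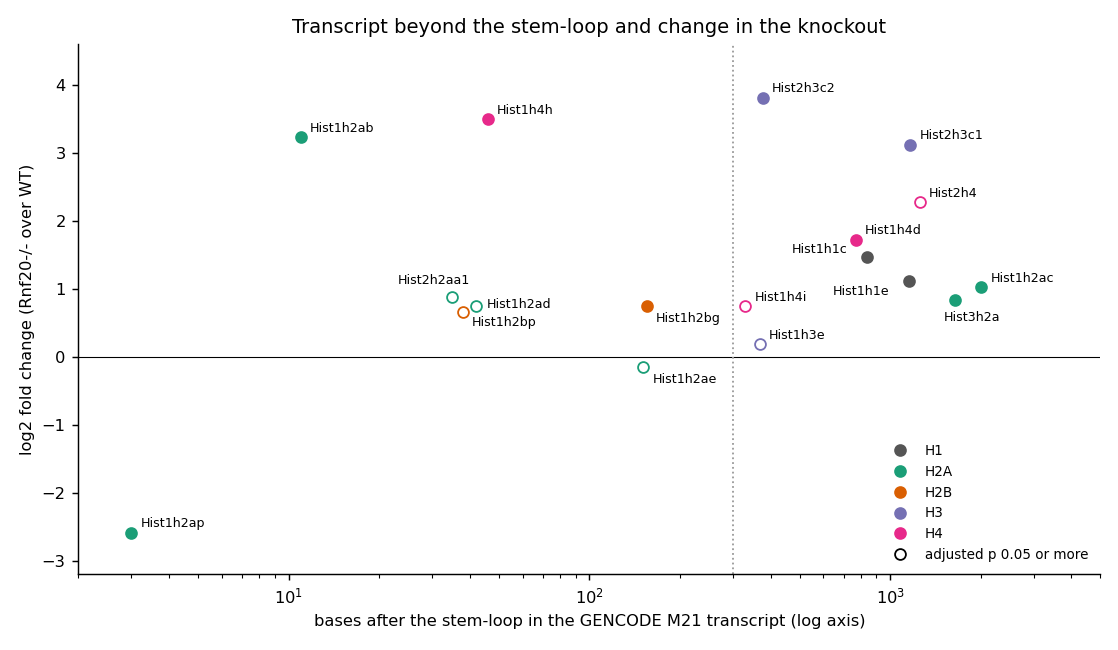
Log2 fold change (Rnf20-/- over WT) of the 18 tested members with stem-loop letters against the number of bases after the stem-loop in the GENCODE M21 transcript (log axis), coloured by histone type. Filled points passed an adjusted p under 0.05, open points did not, and the dotted line is at 300 bases. Risers lie on both sides of the line, and Hist1h2ap lies alone at the lower left with 3 bases and -2.59. Left of the line, Hist1h2ab, Hist1h2ad, Hist1h2bg and Hist1h2bp were counted with gene lengths of 3657, 3441, 2363 and 3220 bases. These are longer than their M21 models, so their place on this axis need not match the stretch counted.

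Along the chromosomes, the Hist1 members on GRCm38 chromosome 13 lie in 2 blocks over 200000 bases apart, beside the lone Hist1h2al. The first block, chr13:21715763-22043676, held 21 matched members, of which 6 were tested, Hist1h1b rose and Hist1h2ap fell. It summed to 69.7, 67.1 and 89.0 CPM in WT and 29.9, 29.0 and 27.1 CPM in the knockout. Without Hist1h2ap these sums were 12.7, 9.11 and 9.63 CPM and 16.4, 15.5 and 21.8 CPM. The second block, chr13:23531050-23934156, held 24 matched members, of which 11 were tested, 8 rose and 0 fell, and only Hist1h2ae had a fitted change below 0. Among those 8, Hist1h4d and Hist1h4h had passed the filter only through the knockout and could hardly be found lower. The same held for Hist1h2bp and Hist1h3i in the first block. The second block summed to 93.5, 77.5 and 91.4 CPM in WT and 225, 198 and 331 CPM in the knockout. Every knockout library was above WT in the second block and below WT in the first. Hist2, at chr3:96220361-96270132, held 8 members, of which 6 were tested and Hist2h2bb, Hist2h3c1 and Hist2h3c2 rose. Of the 6, Hist2h2bb, Hist2h3c2 and Hist2h4 had passed only through the knockout. The Hist2 sum was 6.99, 4.84 and 6.26 CPM in WT and 24.6, 18.6 and 38.1 CPM in the knockout. Whether the blocks differ in their response was not tested.

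**Figure D4:**
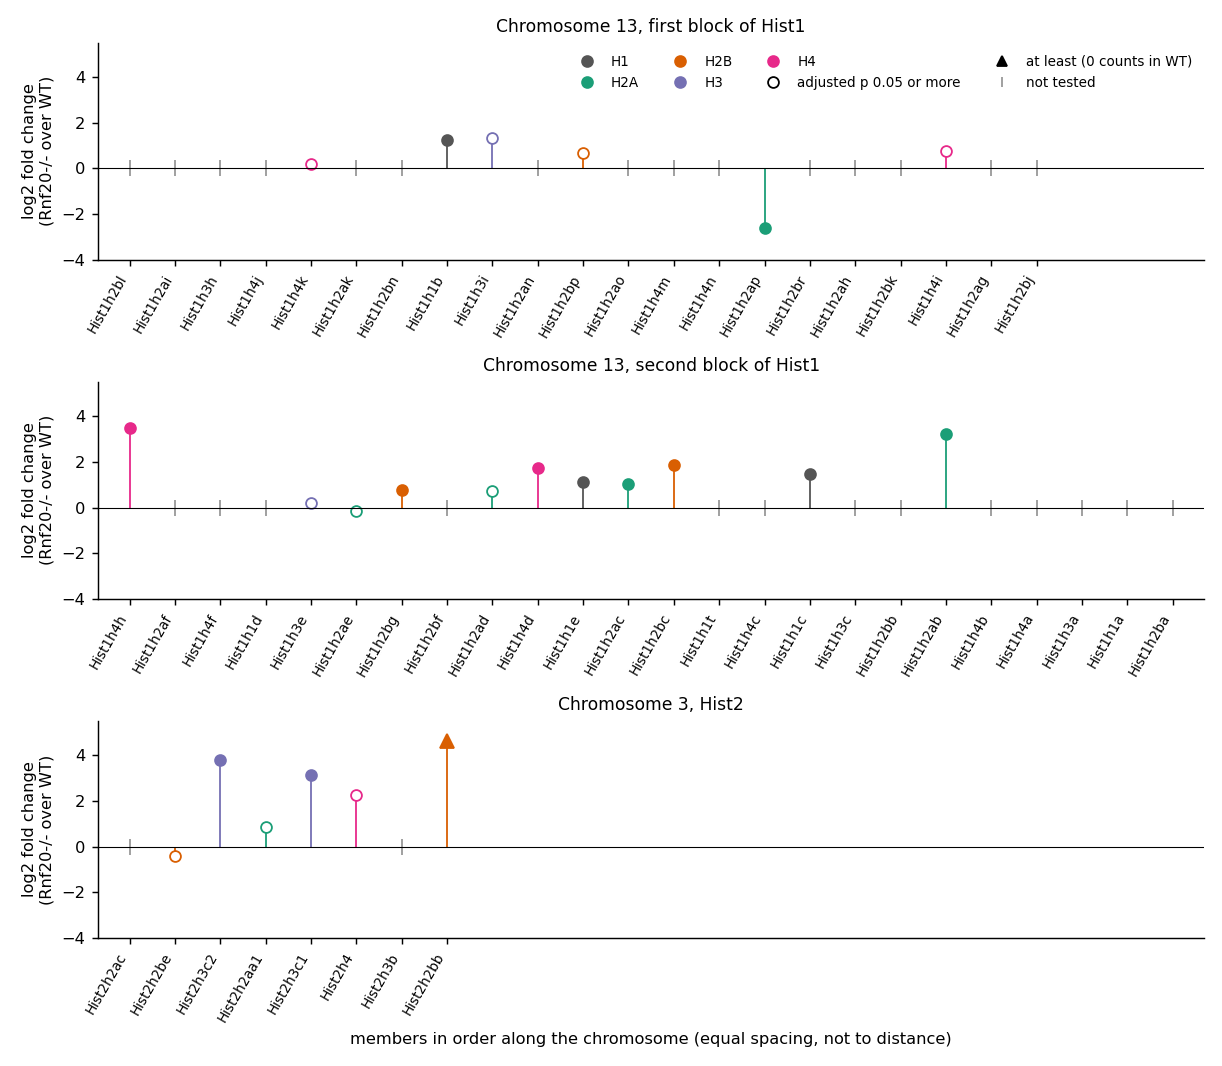
Log2 fold change (Rnf20-/- over WT) of the members of both Hist1 blocks and of Hist2 in their order along the chromosome, equally spaced and coloured by histone type. Filled points passed an adjusted p under 0.05, open points did not, grey ticks are members not tested, and the triangle is the lower bound of Hist2h2bb. Calls of the first block are Hist1h1b up and Hist1h2ap down, and the 8 calls of the second block are all up. Among those 8, Hist1h4d and Hist1h4h passed the filter only through the knockout.

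Among the members, 10 pairs were head to head, with 500 bases or fewer between their annotated starts, and all 10 joined an H2A with an H2B gene, the arrangement in which many histone genes share a promoter. Only 2 pairs had both genes tested. In Hist1h2ac and Hist1h2bc, 250 bases apart, both genes rose, with log2 fold changes of 1.02 and 1.88. In Hist1h2ae and Hist1h2bg, 175 bases apart, Hist1h2bg rose (0.75, a call that was lost without any 1 of the WT libraries) and Hist1h2ae had a log2 fold change of -0.15. In 4 pairs 1 gene was tested, among them Hist1h2ap, which fell while its partner Hist1h2br had at most 5 counts in a library. In the other 4 pairs neither gene was tested.

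The deposited FPKM values held 19 of the members, and in 18 the means moved in the direction of the counts. All 14 members that rose had FPKM values, which did not overlap between genotypes in 11 and overlapped in 3, Hist1h2ac (WT up to 1.25, knockout from 1.15), Hist1h2bg (7.14 and 6.01) and Hist1h4d (2.09 and 0.744). For Hist1h1c the FPKM values were 39.3, 33.6 and 37.0 in WT and 92.6, 84.9 and 137 in the knockout. For Hist1h2ap they were 279, 293 and 506 and 71.9, 68.7 and 30.4, again without overlap. The exception was Hist1h2ad, at 13.9, 10.6 and 25.6 FPKM in WT and 8.75, 7.91 and 4.71 FPKM in the knockout, a ratio of 0.427, while its counts gave a log2 fold change of 0.74 that did not pass. The direction of Hist1h2ad thus depended on the measure, and 63.6% of its windows also occur in other H2A genes.

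The genes that make and process histone mRNA were read from a list of 25 genes. All 25 were tested, 1 was higher at an adjusted p under 0.05 (Ncbp2, a subunit of the cap-binding complex), 7 were lower and 17 did not pass, with a median log2 fold change of -0.29, beside 16.4% higher and 16.6% lower among all genes tested. Slbp, which encodes the stem-loop binding protein, had 43.1, 46.3 and 44.6 CPM in WT and 33.1, 29.3 and 21.9 CPM in the knockout, all below WT, with a log2 fold change of -0.67 (adjusted p = 0.0182). Lsm11, a part of the U7 snRNP that cleaves histone pre-mRNA, fell by 0.61 on the log2 scale (adjusted p = 0.0110), and Eri1, an exonuclease that acts on the histone mRNA 3′ end, fell by 0.60 (adjusted p = 0.0119). Cdk2 and Ccne2, the kinase and a cyclin that act on NPAT at S-phase entry, fell by 1.08 (adjusted p = 0.00533) and 0.89 (adjusted p = 0.00806). Npat, the histone gene coactivator, did not pass (log2 fold change -0.23, adjusted p = 0.168), and neither did Casp8ap2, Lsm10, Zfp473, Cpsf2, Cpsf3 and Sympk. Cstf2 and Nelfb were the remaining calls among the lower genes.

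Genes of DNA replication moved with the genotype. All 28 measured genes of an S-phase list of 30, which also holds Slbp, were lower in the knockout at an adjusted p under 0.05, and 10 of them at the thresholds of the study, with a median log2 fold change of -1.31, beside 16.6% and 2.08% lower among all genes tested. Their summed level was 1710 to 1790 CPM in WT and 467 to 929 CPM in the knockout. Histone variants classed as replication-independent, whose making is not confined to S phase, were 11 genes chosen after their values were seen. They had 8 lower and 1 higher calls among the 10 tested (median -1.05). H2afz fell by 1.22 (adjusted p = 0.00178), and H2afj was the higher one (log2 fold change 0.49, adjusted p = 0.0223). The part of S-phase genes, of knockout replicate 3, of its macrophage and epithelial markers and of Y-linked status in the histone values was not tested.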

How the data were processed

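RNA-seq of 3 WT and 3 Rnf20-/- libraries at day 3 was analysed. Per the labels and the methods of the study, poly(A) libraries (TruSeq Stranded mRNA) were aligned to GRCm38/mm10 with HISAT2 2.1.0, and FPKM values were made with Cufflinks 2.1.1. The authors deposited whole-number read counts per gene with a gene length, and a table with FPKM values per library. The counting program, its strand setting and its treatment of multi-mapping reads were not given in the sources used here. The FPKM table also held 6 columns of per-sample counts and the authors' own FDR and log2 fold change, none of which was used.

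Counts of all 16982 genes were fitted in edgeR 4.0.16 (R 4.3.3) with TMM normalization, filterByExpr (minimum count 10, which left 13386 genes), the quasi-likelihood test and Benjamini-Hochberg adjustment over all genes tested. Calls followed either the thresholds of the study (adjusted p under 0.01, absolute log2 fold change over 1, mean FPKM over 1 in a genotype) or an adjusted p under 0.05. CPM used TMM-scaled library sizes. Total counts of 20545442 to 21746898 per library set the precision, and the 3-count floor covers counting error only. On simulated counts for 3 against 3 libraries the test called 59% of 100 genes with a log2 change of 1 and 85.9% of 100 with a change of 2, among 13403 genes.

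Values in every library are given for members with an adjusted p under 0.05 and an absolute log2 fold change over 1, the 5 members with the highest WT CPM per kb, and those at 0 in one genotype with 10 or more counts in every library of the other. Other members named were chosen after their values were seen. The members, lists and rules were chosen with earlier results of these data known. Hist1h2aa, named in the rule for testis-type genes, has no row in the table used here. Positions, transcripts and overlaps are from GENCODE M21 and promoters from RefSeq, read with Python 3.11.15 and pandas 2.3.3, and a window of 100 bases was called shared when another gene's transcript held it exactly. Alternatives were other scalings, other filters, DESeq2 1.42.0, the exact test of edgeR, no FPKM limit, a replicate block and leaving out each library.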

Additional observations from a re-analysis of the deposited data

How the results depend on the processing

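Under other scalings (RLE size factors or library totals only) the counts of calls among the members were the same as with TMM, and all 15 members described library by library kept the sign of their log2 fold change in all alternatives run. The number higher at the thresholds of the study was 5, and it was 11 in DESeq2, 11 in edgeR's exact test and 0 with the replicate block (where 18 members were higher at an unadjusted p under 0.05, and where 0 genes of the whole table reached these thresholds), and 0 to 10 when a library was left out. Over all genes the number higher at these thresholds was 201, and it was 409 in DESeq2, 409 in the exact test and 0 to 300 when a library was left out. The number of members lower at these thresholds was 1, and it was 0 with the replicate block and 0 to 1 when a library was left out. At an adjusted p under 0.05 the 14 higher members became 7 to 15 when a library was left out and 13 with the replicate block, and the 1 lower became 2 in DESeq2, where Hist1h2ag joined Hist1h2ap. The median of 1.12 became 0.84 in DESeq2 and 0.80 without a count filter, fits that hold all 59 members, and 0.97 to 1.23 when a library was left out. The direction of the summed CPM of each type and cluster was the same in all alternatives run. No pairing by replicate number was seen, as same-numbered libraries had correlations of -0.0656, 0.0366 and 0.0109 between their deviations from the group means over the genes tested. These values cannot show that the libraries were made unpaired. Without WT replicate 2 or 3 the number of members higher at an adjusted p under 0.05 was 9 and 7, in fits with fewer libraries. Those fits called 11.9% and 10.3% of all genes, beside 33% in the main fit and 48.1% without knockout replicate 3. Members with few counts, and copies that share most of their sequence, limit what depth can show here.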
